A study of Mus musculus with 12 samples.

Results

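The 44 genes described here take up fatty acids, bind and activate them, carry them into mitochondria and peroxisomes, oxidise them, or regulate and release stored lipid. They were chosen by name as a module of fatty acid oxidation and lipid handling, and each was read from the probe sets whose annotation gives 1 symbol equal to the gene. Of the 44 members, 41 had such a probe set, against 18193 genes with 1 symbol on the whole array. Cpt1b, the muscle form of the carnitine palmitoyltransferase, was present only on a probe set with several symbols, and no probe set was named for Acsl1 or Ucp2. Where a gene had several probe sets, as 25 members did, the one with the highest mean over all arrays was used.

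RNA came from whole lung of male A/J mice, an inbred strain with reactive airways, aged 8 to 10 weeks per the labels, and 12 Affymetrix arrays fell into 4 groups of 3. Control mice received phosphate-buffered saline in place of both exposures. The OVA mice were sensitised with 0.4 mg/kg of ovalbumin into the peritoneum on day 0 and challenged with 30 mg/kg into the trachea on day 14. The PM mice aspirated 50 µl of urban particulate matter at 10 mg/ml in saline, and the OVA/PM mice received ovalbumin and then particles. The publication states that lung expression was compared 4 days after the particles. RNA of 3 animals a group was prepared, so that p-values measure the spread between 3 animals. Expression is given as log2 intensity, on which a difference of 1 is a doubling, and no value is compared between probe sets as an amount of RNA.

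The names OVA and PM carry a doubt. When fold changes against Control were computed from the deposited values for genes tabulated in the publication, 28 of 28 matched the printed entry once each OVA name was swapped for PM and the reverse, and 4 of 28 as labelled. The groups are therefore called OVA and PM as labels only, and comparisons of OVA/PM with Control and the interaction do not depend on which name is right. One array also stood apart: Alb, the albumin gene, lay at 13.38 in Control replicate 1 and at no more than 3.39 in the other arrays, and the mean of 9 liver genes was 9.82 there against 2.15 to 2.36 elsewhere. Lung markers were high in every array, with club cell genes averaging 14.28 to 14.81 and alveolar type 2 genes 13.90 to 14.11.

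Fatty acids enter cells through lipoprotein lipase, binding proteins and transporters, are joined to coenzyme A, and cross into mitochondria as carnitine esters, where dehydrogenases, hydratases and thiolases shorten them step by step. Peroxisomes handle very long and branched chains with their own enzymes, and the nuclear receptors Ppara and Pparg set the transcription of many of these genes. In lung, alveolar type 2 cells use lipid to make surfactant and macrophages clear it, while brown fat, white fat and muscle, which can be dissected along with a lung, carry the same enzymes at high levels.

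The promoters of the 3 members called lower against Control in both OVA and OVA/PM are shown. Ppara and Pparg, with their RXR partners, bind 2 copies of the motif AGGTCA spaced by 1 base, so the windows were searched on both strands for AGGTCA and for 2 copies of AGGNCA 1 base apart, with the second pattern allowed to overlap the first. Capitals mark those matches in sequences from RefSeq (GRCm38.p6), each 250 bases before to 50 bases after the start, read along the gene's strand: Fabp1 at chr6:71199629-71199928 on the plus strand, Acaa1b at chr9:119157044-119157343 on the minus strand and Ces1g at chr8:93337160-93337459 on the minus strand.
Fabp1: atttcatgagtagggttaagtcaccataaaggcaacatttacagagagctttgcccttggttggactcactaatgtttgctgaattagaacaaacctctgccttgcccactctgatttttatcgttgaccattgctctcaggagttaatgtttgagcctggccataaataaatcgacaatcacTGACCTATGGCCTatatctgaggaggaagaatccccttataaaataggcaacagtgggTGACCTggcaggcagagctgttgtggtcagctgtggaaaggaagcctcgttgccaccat
Acaa1b: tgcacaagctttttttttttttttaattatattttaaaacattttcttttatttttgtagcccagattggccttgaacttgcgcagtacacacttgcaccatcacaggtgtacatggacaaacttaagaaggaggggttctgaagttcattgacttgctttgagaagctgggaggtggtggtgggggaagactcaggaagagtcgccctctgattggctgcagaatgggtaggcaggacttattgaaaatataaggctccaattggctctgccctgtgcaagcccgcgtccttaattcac
Ces1g: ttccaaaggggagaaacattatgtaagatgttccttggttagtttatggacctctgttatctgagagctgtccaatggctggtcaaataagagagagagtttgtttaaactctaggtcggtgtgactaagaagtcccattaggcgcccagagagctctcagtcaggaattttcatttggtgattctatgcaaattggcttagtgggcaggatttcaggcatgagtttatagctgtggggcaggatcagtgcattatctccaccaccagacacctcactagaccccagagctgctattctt

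The Fabp1 window held AGGTCA in 2 places, both read on the minus strand, and a spaced pair beginning 67 bases before the start. Of the 36 members with a window, 8 held AGGTCA (Acadm, Acadvl, Cpt1a, Fabp1, Pparg, Scp2, Slc27a2 and Ucp3), against 18.1% of 27025 genes in the table, and the paired pattern was present in Fabp1 alone, against 0.451% of genes. No window was at hand for Fabp4, Acaa2, Hsd17b4, Cpt1b, Crat, Decr1, Lpl or Ces1d. The letters of the Acaa1b and Ces1g windows hold neither pattern, and a match or its absence describes these 300 bases only.

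**Figure D1:**
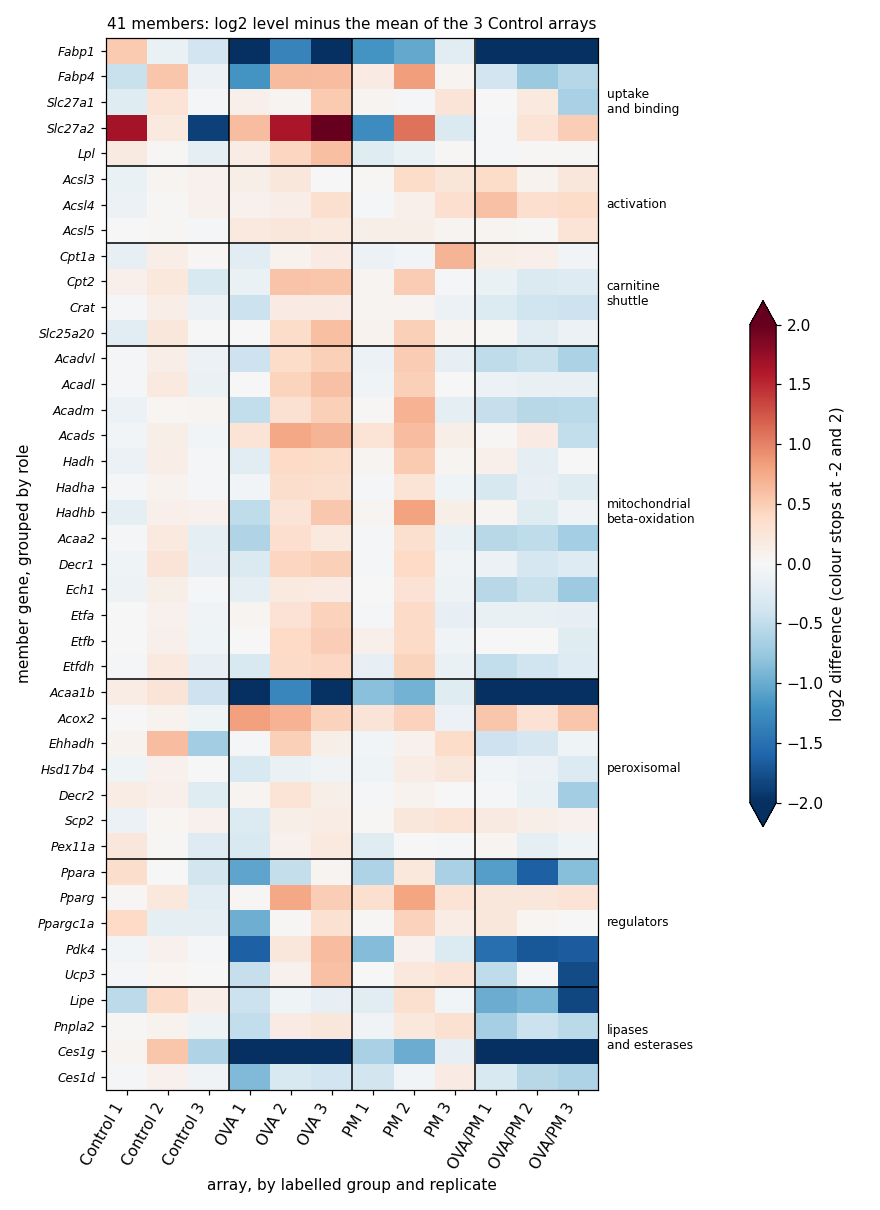
Heat map of the 41 members (rows, by role) in the 12 arrays (columns): colour is the log2 intensity minus the mean of the 3 Control arrays, from blue (lower) to red (higher). Fabp1, Acaa1b and Ces1g are blue in every array labelled OVA and every OVA/PM array, and the block of mitochondrial genes is red in OVA replicates 2 and 3 and PM replicate 2 and pale or blue in the OVA/PM arrays.

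The arrays labelled OVA differed from Control in few members. Fabp1, Acaa1b and Ces1g fell and Acox2 and Acads rose, so that 2 of 40 tested members were called higher and 3 lower (limma, adjusted p under 0.05), where 11.3% of all tested genes were higher and 7.58% lower. The arrays labelled PM differed in none of 39 tested members (limma; 3 at an unadjusted p under 0.05; SAM also 0), where 0.0986% of genes were called. The OVA/PM arrays differed most: 12 of 39 tested members were lower and 2 higher, where 9.74% of genes were lower and 13.9% higher. The median member shifted by -0.23 on the log2 scale in that comparison, against 0.01 over all genes. Of the 39 members 30 lay below 0, where 49% of all genes did.

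Fabp1, the liver-type fatty acid binding protein that carries fatty acids in the cytosol, measured 11.11, 10.44 and 10.20 in Control, 8.45, 9.24 and 7.72 in OVA, 9.39, 9.55 and 10.35 in PM, and 8.14, 8.33 and 8.21 in OVA/PM. Every OVA and OVA/PM array lay below every Control and PM array. The log2 fold change against Control was -2.11 (SE 0.42, adjusted p = 0.0263, limma) for OVA and -2.36 (SE 0.23, adjusted p = 0.00186) for OVA/PM, a 5.13-fold lower level. It was -0.82 (SE 0.33) for PM, which did not pass (adjusted p = 0.603). The second Fabp1 probe set gave -2.66 and -2.87 in OVA and OVA/PM. Fabp1 is abundant in liver. Without Control replicate 1, the array with liver genes, the change was -1.85 for OVA, which no longer passed (adjusted p = 0.0693, limma), and -2.10 for OVA/PM (adjusted p = 0.00183). The OVA call was also lost without Control replicate 2, OVA replicate 1 (adjusted p = 0.0796) or OVA replicate 3. The OVA/PM call was lost in 0 of 6 such fits.

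Fabp4, the fatty acid binding protein of adipocytes, macrophages and capillary endothelium, spread widely within groups: 13.57, 14.57 and 13.91 in Control, 12.83, 14.66 and 14.64 in OVA, 14.19, 14.86 and 14.08 in PM, and 13.64, 13.28 and 13.45 in OVA/PM. The OVA/PM arrays lay under every PM array but overlapped Control. Only the comparison of OVA/PM with PM was called for it, at -0.92 (SE 0.22, adjusted p = 0.0418, limma), and that call was lost on leaving out any 1 of the 6 arrays. Lpl, lipoprotein lipase of the capillary wall, passed in no comparison. It measured 13.59, 13.43 and 13.22 in Control, 13.56, 13.84 and 14.01 in OVA, 13.17, 13.27 and 13.43 in PM, and 13.39, 13.44 and 13.44 in OVA/PM. Its groups overlapped in each comparison with Control. The OVA arrays lay above all PM and OVA/PM arrays. OVA against PM gave 0.51 (SE 0.14, adjusted p = 0.0756, limma) and OVA/PM against OVA -0.38 (SE 0.13, adjusted p = 0.516). The transporter Slc27a1 was called in no comparison, and Slc27a2, a very long chain acyl-CoA synthetase and transporter, passed the filter only through the arrays labelled OVA, with 5 of 12 arrays at the level of the filter.

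Among the acyl-CoA synthetases, which activate fatty acids, Acsl4, with a preference for arachidonic acid, was called higher in OVA/PM. It measured 12.68, 12.83 and 12.88 in Control, 12.89, 12.94 and 13.12 in OVA, 12.78, 12.90 and 13.14 in PM, and 13.39, 13.14 and 13.17 in OVA/PM. The OVA/PM arrays stood above all Control arrays, by 0.44 (SE 0.11, adjusted p = 0.0364, limma), but leaving out any 1 of the 6 arrays lost the call (adjusted p up to 0.107, without Control replicate 1), as did the replicate block (adjusted p = 0.098), the fit of all genes with no filter (adjusted p = 0.0502) and each of the 4 marker covariates. Other Acsl4 probe sets gave 0.12 (adjusted p = 0.688, limma) and 0.36 (adjusted p = 0.222) in OVA/PM against Control and were not called. Acsl3 and Acsl5 did not pass against Control, with log2 fold changes between 0.09 and 0.21. The carnitine shuttle showed no call in any comparison: Cpt1a, the outer-membrane step that controls entry, measured 10.51, 10.82 and 10.70 in Control, 10.45, 10.75 and 10.84 in OVA, 10.56, 10.62 and 11.36 in PM, and 10.80, 10.78 and 10.63 in OVA/PM. Those ranges overlap throughout. In OVA/PM against Control this Cpt1a probe set gave 0.06. Its other probe sets gave -0.40 (adjusted p = 0.0696, limma) and -0.12 (adjusted p = 0.552) and were not called. Cpt2, Crat and Slc25a20, the inner-membrane enzyme, the carnitine acetyltransferase and the translocase, lay between -0.36 and -0.10 in OVA/PM against Control, and Crat came closest to the threshold (adjusted p = 0.0549).

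Of the 13 genes of the mitochondrial spiral, 4 fell in OVA/PM against Control, where 9.74% of all tested genes were lower, and the others did not pass. All 13 log2 fold changes were below 0, from -0.58 to -0.03 with a median of -0.24, where 49% of all genes lay below 0. Those that passed were the very long chain and medium chain dehydrogenases Acadvl and Acadm, the thiolase Acaa2 and the dienoyl-CoA isomerase Ech1. Acadvl measured 10.98, 11.13 and 10.88 in Control, 10.58, 11.36 and 11.48 in OVA, 10.89, 11.50 and 10.84 in PM, and 10.49, 10.56 and 10.36 in OVA/PM. Acadm, the enzyme missing in the commonest inherited defect of this pathway, measured 11.37, 11.52 and 11.53 in Control, 10.99, 11.79 and 11.96 in OVA, 11.51, 12.18 and 11.30 in PM, and 11.02, 10.93 and 10.94 in OVA/PM. For both genes the OVA/PM arrays lay under all Control and PM arrays while the OVA arrays straddled them. The changes against Control were -0.53 (SE 0.11, adjusted p = 0.0183, limma) for Acadvl and -0.51 (SE 0.09, adjusted p = 0.0124) for Acadm. The Acadvl call was lost without Control replicate 1, Control replicate 2 (adjusted p = 0.073) or OVA/PM replicate 1, and the Acadm call without Control replicate 2 (adjusted p = 0.0592).

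Acaa2, the last thiolytic step, gave 11.79, 12.02 and 11.64 in Control, 11.22, 12.16 and 12.01 in OVA, 11.80, 12.14 and 11.69 in PM, and 11.27, 11.31 and 11.14 in OVA/PM. Ech1, which prepares unsaturated chains for oxidation, gave 11.52, 11.73 and 11.60, then 11.42, 11.82 and 11.79, then 11.61, 11.91 and 11.52, and 11.07, 11.17 and 10.90 in the same order of groups. For Ech1 the OVA/PM arrays were the lowest 3 of the 12, and for Acaa2 OVA replicate 1 lay among them. Against Control, the change was -0.58 (SE 0.12, adjusted p = 0.0219, limma) for Acaa2 and -0.57 (SE 0.11, adjusted p = 0.0169) for Ech1, and against PM the values were -0.64 and -0.63 (adjusted p = 0.0299 for each). Against Control, 4 of 6 fits without 1 array lost the Acaa2 call and 2 of 6 the Ech1 call, with adjusted p up to 0.0694 and 0.0703, each without Control replicate 2. The fit of all 4 groups also lost the calls against Control of Acaa2 (adjusted p = 0.0735), Acadvl (adjusted p = 0.115) and Acadm (adjusted p = 0.159). Against PM, 5 of 6 such fits lost the call for each gene, with adjusted p up to 0.0867 and 0.083, each without OVA/PM replicate 3. A second probe set called Decr1 (-0.60, adjusted p = 0.0143) and Hadhb (-0.44, adjusted p = 0.0327) lower in OVA/PM, where the probe sets used here gave -0.24 and -0.09 and were not called.

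Acads, the short chain dehydrogenase, went the other way in the arrays labelled OVA. Its intensities were 8.17, 8.34 and 8.17 in Control, 8.50, 9.0 and 8.91 in OVA, 8.50, 8.84 and 8.35 in PM, and 8.26, 8.39 and 7.74 in OVA/PM. Every OVA array was above every Control array, by 0.58 on average (SE 0.15, adjusted p = 0.0447, limma), and 5 of the 6 fits that leave out 1 array lost the call, with adjusted p up to 0.142. The other 12 genes of the spiral did not pass in OVA against Control, where the 13 ranged from -0.02 to 0.58, nor did any of the 13 in PM, where they ranged from 0.04 to 0.33.

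**Figure D2:**
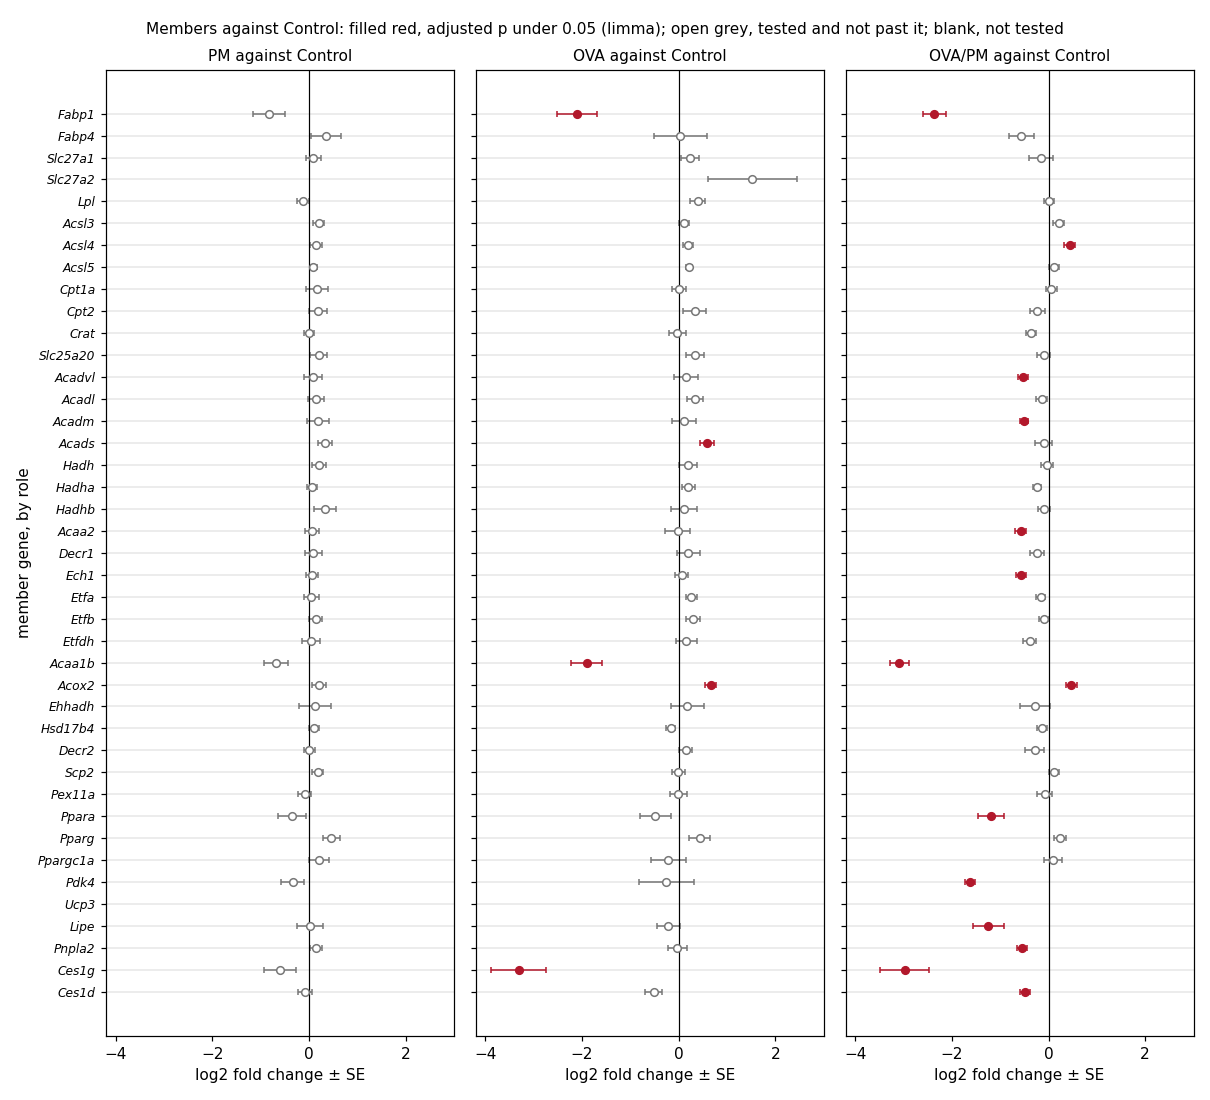
Log2 fold change against Control with its standard error (horizontal axis) for each member (vertical axis, by role) in the arrays labelled PM, labelled OVA and OVA/PM. Filled red points passed an adjusted p of 0.05: none for PM, 5 for OVA and 14 for OVA/PM, among them Acaa1b (-3.09), Fabp1 (-2.36) and Ces1g (-2.98, with 1 of the 3 OVA/PM arrays under the filter level of 4.93).

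In Control, OVA and PM, most of these 13 genes were highest or lowest in the same array. All 13 were lowest in OVA replicate 1 among the OVA arrays, where 37.5% of 10843 genes were lowest, and all 13 were highest in PM replicate 2 among the PM arrays, where 36.9% of genes were highest. In Control, 12 of 13 were highest in replicate 2, against 30.3% of genes. Among the OVA/PM arrays the order was mixed, with 7, 5 and 1 of the members highest in replicates 1, 2 and 3 and 2, 4 and 7 lowest. Genes of brown fat, the heat-producing tissue found beside the thymus and large vessels, ordered the arrays alike: the mean of 6 such genes was 7.58, 8.66 and 7.36 in Control, 6.96, 9.41 and 9.98 in OVA, 8.06, 9.83 and 7.36 in PM, and 7.02, 6.73 and 6.71 in OVA/PM. Ucp1, the uncoupling protein that defines brown fat, spanned 7.02 to 12.87 over the 12 arrays, was highest in OVA replicate 3 and lowest in OVA/PM replicate 2, and was above the filter level in all of them. The mean of the 13 members rose with the brown fat list from 10.93 in OVA/PM replicate 3 to 11.75 in PM replicate 2, across groups as well as within them. The points share the normalization of the arrays. Brown fat was not alone in this. The heart muscle list averaged 10.35, 11.12 and 10.64 in Control, 10.11, 11.31 and 12.03 in OVA, 11.17, 11.88 and 10.90 in PM, and 9.89, 10.88 and 10.54 in OVA/PM. The white fat list was also highest in Control replicate 2 and PM replicate 2 and lowest in OVA replicate 1. The skeletal muscle list was highest in Control replicate 1 and PM replicate 1.

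**Figure D3:**
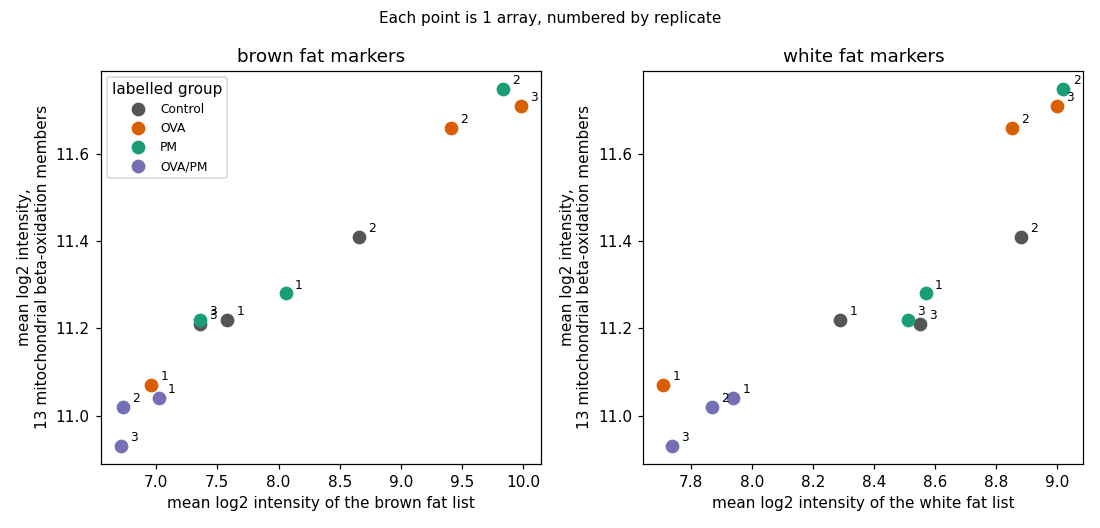
Mean log2 intensity of the 13 mitochondrial members (vertical axis) against the mean of the brown fat list (left) and the white fat list (right), with 1 point per array, coloured by labelled group and numbered by replicate. PM replicate 2 and OVA replicates 2 and 3 lie at the upper right, and OVA replicate 1 lies with the 3 OVA/PM arrays at the lower left.

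Other tissue markers also moved with the combined group. The white fat list (9 genes) averaged 7.74 to 7.94 in the OVA/PM arrays and 8.29 to 8.88 in Control, with no overlap, 7.71 to 9.0 in OVA and 8.51 to 9.02 in PM. Of its 7 tested genes, 4 were called lower in OVA/PM against Control, where 9.74% of all tested genes were. The skeletal muscle list (15 genes) averaged 4.13, 7.35 and 6.47 in OVA/PM and 8.53 to 11.35 in Control, and the heart muscle list 9.89 to 10.88 and 10.35 to 11.12. Fitted with a list's mean as a covariate, OVA/PM against Control called 0 members with white fat, 2 with brown fat, 2 with skeletal muscle and 9 with heart muscle, in place of 14. Over all probe sets those fits called 66, 365, 212 and 3396 in place of 4899, so that the covariates took calls from the whole array along with the members. The brown fat means (6.71 to 7.02 in OVA/PM, 7.36 to 8.66 in Control) and the skeletal muscle means did not overlap either, so exposure and the level of white fat, brown fat or skeletal muscle genes cannot be told apart, in these fits or in those given for single members, while the heart muscle means overlapped. In whole lung RNA, moreover, fewer cells of a type and less RNA per cell cannot be told apart.

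Of the peroxisomal genes, Acaa1b moved most. It encodes a peroxisomal 3-ketoacyl-CoA thiolase, a known target of Ppara in rodents, and measured 9.57, 9.68 and 9.01 in Control, 7.00, 8.12 and 7.44 in OVA, 8.58, 8.47 and 9.17 in PM, and 6.17, 6.48 and 6.35 in OVA/PM. The OVA/PM arrays were the lowest 3, the OVA arrays came next, and PM and Control overlapped. Against Control the log2 fold change was -1.90 (SE 0.32, adjusted p = 0.0189, limma) in OVA and -3.09 (SE 0.20, adjusted p = 0.000483) in OVA/PM, an 8.49-fold lower level, and against PM it was -2.40 (SE 0.20, adjusted p = 0.00167). The PM arrays gave -0.68 (SE 0.25, adjusted p = 0.566). Between OVA/PM and OVA the difference of -1.19 (SE 0.28) did not pass after adjustment (adjusted p = 0.366), although the arrays did not overlap.

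For Acaa1b the covariates changed little in size. In OVA/PM against Control it stood at -2.75 with the brown fat list (adjusted p = 0.0254), -2.87 with skeletal muscle (adjusted p = 0.0449), -3.01 with heart muscle (adjusted p = 0.0018) and -2.96 with white fat, which lost the call (adjusted p = 0.105). Without Control replicate 1, the array with liver genes, it was -3.01 (adjusted p = 0.00266, limma) in OVA/PM and -1.82 in OVA, which missed the threshold (adjusted p = 0.0568). In all, 4 of 6 fits without 1 array lost the Acaa1b call in OVA (adjusted p up to 0.0786, without OVA replicate 3). Its close copy Acaa1a, whose transcripts a probe set could share, was not called in OVA/PM (0.34, adjusted p = 0.25).

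Acox2, the branched-chain acyl-CoA oxidase that also shortens bile acid precursors, was the member called higher in both the OVA and the OVA/PM arrays. Intensities were 7.91, 7.97 and 7.81 in Control, 8.72, 8.60 and 8.36 in OVA, 8.16, 8.36 and 7.79 in PM, and 8.45, 8.19 and 8.46 in OVA/PM. No OVA or OVA/PM array overlapped Control, and PM replicate 3 lay below all Control arrays. The rises were 0.66 (SE 0.11, adjusted p = 0.0197, limma) and 0.47 (SE 0.11, adjusted p = 0.0291), and each call depended on single arrays, since 3 of 6 and 5 of 6 fits without 1 array lost it. The other peroxisomal members, Ehhadh, Hsd17b4, Decr2, Scp2 and Pex11a, were called in no comparison.

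The regulators split. Ppara, the receptor that drives fatty acid oxidation, measured 7.81, 7.47 and 7.09 in Control, 6.40, 6.99 and 7.52 in OVA, 6.84, 7.67 and 6.81 in PM, and 6.36, 5.82 and 6.61 in OVA/PM. OVA/PM lay below Control without overlap, with a change of -1.19 (SE 0.26, adjusted p = 0.0232, limma), and OVA and PM overlapped it. The call was lost without Control replicate 1 (-1.01, adjusted p = 0.0621), without Control replicate 2 (adjusted p = 0.0772) and without OVA/PM replicate 1. Pparg, the receptor of adipocytes and alveolar macrophages, measured 7.93, 8.11 and 7.67 in Control, 7.93, 8.67 and 8.39 in OVA, 8.22, 8.69 and 8.18 in PM, and 8.12, 8.12 and 8.18 in OVA/PM. Its differences from Control, 0.24 to 0.46, did not pass. Ppargc1a, the coactivator of mitochondrial genes, likewise was not called, at 7.88, 7.28 and 7.28 in Control, 6.51, 7.50 and 7.78 in OVA, 7.51, 7.94 and 7.63 in PM, and 7.71, 7.52 and 7.49 in OVA/PM.

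Pdk4, the kinase that shuts pyruvate out of oxidation when fat is burned, had the smallest p among the members in OVA/PM against Control. Its intensities were 10.19, 10.33 and 10.22 in Control, 8.62, 10.48 and 10.87 in OVA, 9.39, 10.34 and 9.97 in PM, and 8.74, 8.55 and 8.58 in OVA/PM. The OVA/PM arrays and OVA replicate 1 were low together, and the other OVA arrays were above Control. The fall in OVA/PM was -1.62 (SE 0.10, adjusted p = 0.000384, limma), a 3.08-fold lower level, and no fit without 1 array lost it (highest adjusted p 0.00387). With the brown fat list as a covariate it was -1.50 (adjusted p = 0.0263), and with white fat -1.42 (adjusted p = 0.105). The fall of -1.28 against PM passed (adjusted p = 0.0189) and was -0.91 with brown fat as covariate (adjusted p = 0.23). That call against PM was lost in 4 of 6 fits without 1 array (adjusted p up to 0.0633, without OVA/PM replicate 3). It was also lost with no filter, with the replicate block, in the fit of all 4 groups and with each covariate. Ucp3, a mitochondrial carrier of muscle, reached the filter level in 1 of 12 arrays and was not tested.

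**Figure D4:**
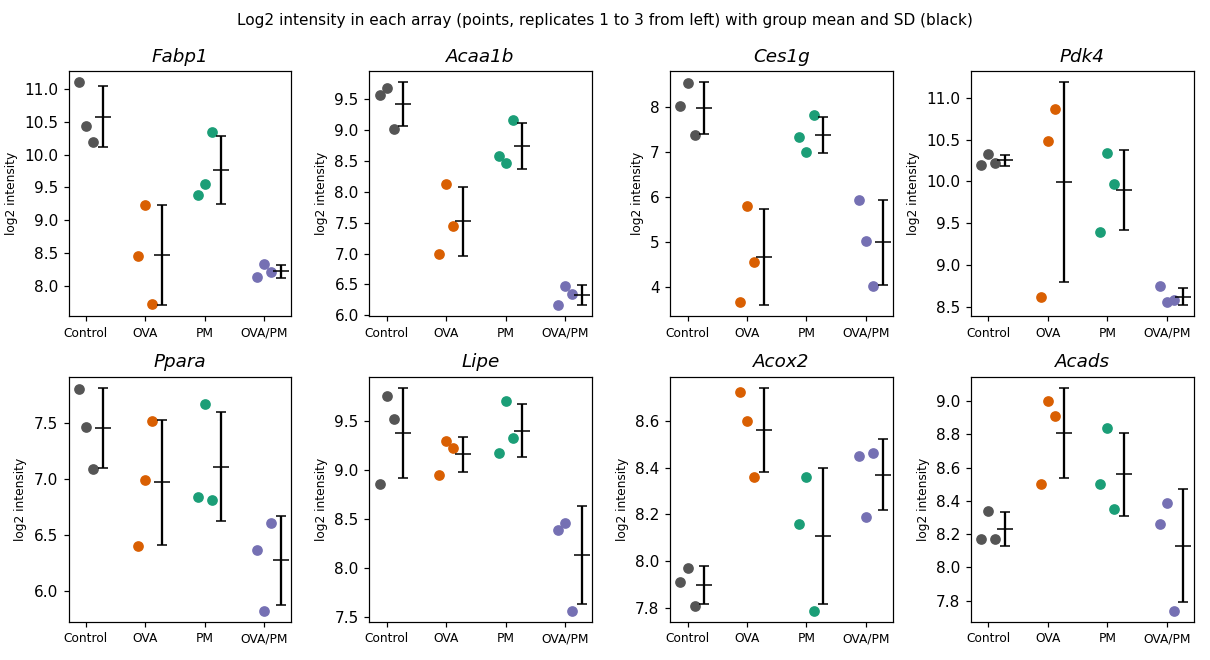
Log2 intensity (vertical axis, a separate scale for each gene) of 8 members in each of the 12 arrays by labelled group, with the group mean and SD in black. Fabp1, Acaa1b and Ces1g are low in the OVA and OVA/PM arrays, Pdk4, Ppara and Lipe are lowest in OVA/PM, and Acox2 is above Control in OVA and OVA/PM.

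All 4 lipases and esterases were called lower in OVA/PM against Control, where 9.74% of all tested genes were. Ces1g, a carboxylesterase that hydrolyses triglyceride and cholesteryl esters in liver and gut, measured 8.03, 8.53 and 7.38 in Control, 3.66, 5.79 and 4.56 in OVA, 7.33, 6.99 and 7.82 in PM, and 5.94, 5.01 and 4.03 in OVA/PM. The 6 OVA and OVA/PM arrays lay below the other 6, and 3 of them were under the filter level of 4.93, where values approach background (2 of 3 in OVA, 1 of 3 in OVA/PM), so the sizes of its changes there are not exact. It was tested through the groups in which it is high, and was not tested between OVA/PM and OVA. The changes against Control were -3.31 (SE 0.57, adjusted p = 0.0198, limma) for OVA and -2.98 (SE 0.51, adjusted p = 0.0116) for OVA/PM. It was the one member called between the arrays labelled OVA and PM, at -2.71 (SE 0.54, adjusted p = 0.0472), where 6.12% of genes were called, and 5 of 6 fits without 1 array lost that call. Without Control replicate 1 the values against Control were -3.28 for OVA (adjusted p = 0.058, limma) and -2.96 for OVA/PM (adjusted p = 0.0378). In all, 4 of 6 fits without 1 array lost the call of OVA against Control (adjusted p up to 0.0809, without OVA replicate 3). The call of OVA/PM against Control was lost in 0 of 6.

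Ces1d, a triacylglycerol hydrolase, measured 14.11, 14.22 and 14.07 in Control, 13.25, 13.83 and 13.76 in OVA, 13.78, 14.09 and 14.30 in PM, and 13.83, 13.59 and 13.53 in OVA/PM. The OVA and OVA/PM arrays lay below Control without overlap, with changes of -0.52 in OVA, which did not pass (adjusted p = 0.0734), and -0.49 in OVA/PM (SE 0.11, adjusted p = 0.0273, limma), a call that 4 of 6 fits without 1 array lost. Its other probe sets gave -0.65 (adjusted p = 0.0157) and -0.19 (adjusted p = 0.253) in OVA/PM. The carboxylesterases are a family of near-identical genes, and a probe set may read more than 1 of them.

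Lipe and Pnpla2, the hormone-sensitive and the adipose triglyceride lipase that release stored fat, were called in OVA/PM alone among the comparisons with Control. Lipe measured 8.86, 9.76 and 9.52 in Control, 8.95, 9.30 and 9.22 in OVA, 9.17, 9.70 and 9.33 in PM, and 8.38, 8.46 and 7.56 in OVA/PM. Pnpla2 measured 11.56, 11.60 and 11.43 in Control, 11.03, 11.70 and 11.75 in OVA, 11.46, 11.74 and 11.83 in PM, and 10.86, 11.10 and 10.99 in OVA/PM. The OVA/PM arrays lay below all Control and PM arrays for both. The changes against Control were -1.25 (SE 0.32, adjusted p = 0.0384, limma) for Lipe and -0.55 (SE 0.10, adjusted p = 0.0149) for Pnpla2. The Lipe call was lost in 5 of 6 fits without 1 array (adjusted p up to 0.12, without Control replicate 2), with no filter and with the replicate block (adjusted p = 0.0981 and 0.0574), and the Pnpla2 call without Control replicate 1 or Control replicate 2 (adjusted p = 0.0664 without the latter). The difference between OVA/PM and OVA did not pass for either (-1.02 and -0.51, adjusted p = 0.4 and 0.558). With the white fat list as a covariate the Lipe change was 0.07.

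The combined exposure was also compared with each single one. Against the arrays labelled PM, 9 of 39 tested members were lower in OVA/PM and 0 higher, where 6.77% of genes were lower and 9.13% higher. The 9 were Fabp1, Fabp4, Acaa1b, Ces1g, Pdk4, Lipe, Pnpla2, Acaa2 and Ech1. Of the 39 members 33 lay below 0 with a median of -0.33, against 53.6% of all genes and a median of -0.02. Against the arrays labelled OVA, 0 of 39 members passed (limma; 18 at an unadjusted p under 0.05; SAM also 0), where 0.159% of genes were called and 930 of 11347 had an unadjusted p under 0.05. The interaction, which asks whether the combined effect departs from the sum of the single effects, called 0 of 40 members (limma, lowest adjusted p = 0.549; 12 at an unadjusted p under 0.05), where 0.035% of genes were called and 503 of 11415 had such a p. All 13 mitochondrial genes lay below 0 in it, from -1.01 for Acads to -0.43, where 55.4% of all genes did. OVA replicates 2 and 3 and PM replicate 2, the arrays high in brown fat genes, enter the single-exposure terms of the interaction. These comparisons share the OVA/PM or Control arrays with those above and are not independent of them. The part of the fat and muscle genes in the members' differences was not tested beyond the covariate fits.

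Related genes outside the 44 were read from lists of the same pathways, and their difference from the members was not tested. Over all tested genes, 7.58% were lower and 11.3% higher in OVA against Control, and 9.74% and 13.9% in OVA/PM. Of 25 other genes of beta-oxidation, 0 passed in OVA and 2 were lower in OVA/PM (Acad10 and Slc22a5), near that share. In OVA/PM against Control 19 of these 25 lay below 0, with a median of -0.19, where 49% of all genes did. The downward drift of the members was thus not particular to them. Of 10 other genes of uptake and activation, 2 were higher and 2 lower in OVA, and 2 higher and 4 lower in OVA/PM. Fabp5 and Acot7 were higher and Cd36 and Gpihbp1 lower in both, and Fabp3 and Acot1 were lower in OVA/PM alone. Fabp3 measured 11.10, 10.57 and 11.02 in Control and 9.08, 10.95 and 11.17 in OVA. It was 10.47, 11.05 and 10.07 in PM and 9.07, 9.84 and 9.21 in OVA/PM, so that OVA replicate 1 was low with the OVA/PM arrays. Cd36, the fatty acid receptor of capillary endothelium and macrophages, changed by -0.42 (adjusted p = 0.041, limma) in OVA and -0.63 (adjusted p = 0.00671) in OVA/PM. Gpihbp1, which anchors lipoprotein lipase to the capillary wall, changed by -0.59 (adjusted p = 0.0255) and -0.78 (adjusted p = 0.00259). Fabp5, the epidermal-type binding protein of macrophages, was higher by 0.75 (adjusted p = 0.0349) and 0.70 (adjusted p = 0.0337).

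Genes of endothelium and of monocytes and macrophages, the cell types named above for Cd36, Gpihbp1 and Fabp5, also differed in these groups. Endothelial genes were called lower in 7 of 8 in OVA/PM and 4 of 8 in OVA, where 9.74% and 7.58% of all genes were lower. Their mean was 12.47 to 12.49 in Control, 11.74 to 12.14 in OVA and 11.74 to 11.86 in OVA/PM. Monocyte and macrophage genes were called higher in 8 of 10 in OVA/PM and 7 of 10 in OVA, where 13.9% and 11.3% of all genes were higher. Their means were 9.25 to 9.70 in Control, 11.21 to 11.97 in OVA and 11.47 to 12.12 in OVA/PM. In the arrays labelled PM, 0 of the 10 were called (limma, 2 at an unadjusted p under 0.05), where 0.0986% of all genes were called, with means of 9.65 to 10.33. Club cell genes were called lower in 2 of 5 in OVA/PM (Fmo2 and Cyp2f2) and 1 of 5 in OVA (Cyp2f2). Their means were 14.63 to 14.81 in Control, 14.28 to 14.62 in OVA, 14.65 to 14.70 in PM and 14.31 to 14.42 in OVA/PM. The part of any of these cell types in the members' changes was not tested. Of 10 partners and targets of the PPAR receptors, 2 were lower in OVA/PM, where 9.74% of all genes were lower. They were Pdk2 and Angptl4, a lipoprotein lipase inhibitor (-1.25, adjusted p = 0.00943, limma). Of 16 genes of fatty acid and triglyceride synthesis, 2 were lower in OVA/PM (Scd2 and Acacb), near the share over all genes. In OVA/PM, 15 of these 16 lay below 0 against Control, with a median of -0.12. Against PM, 15 of 16 lay below 0 as well, with a median of -0.34. Of 11 lipid droplet and other lipase genes, 3 were lower and 1 higher in OVA/PM, where 13.9% of all genes were higher. The lipase inhibitor Hilpda stood at -1.51 (adjusted p = 0.00319, limma) in OVA/PM and -0.99 (adjusted p = 0.0167) in OVA.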

How the data were processed

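The authors deposited log2 intensities of 45101 probe sets for 12 arrays; the submitters' processing notes name GCRMA and MAS5, with versions not given in the sources used here. Array medians ran from 4.843 to 5.032, and the number of arrays, 3 a group, limits the precision. Groups were compared in pairs, 6 arrays each, with limma 3.58.1 in R 4.3.3 (empirical Bayes moderation, Benjamini-Hochberg adjustment over all probe sets tested, threshold 0.05). Tests were run on probe sets for which each of the 3 arrays in 1 or both compared groups reached 4.93, the median of all values; 64 control probe sets were left out. The interaction came from a fit of all 4 groups. Shares of all genes use 1 probe set per gene, the one with the highest mean. The 44 members, their roles, the gene lists and the tests were chosen with earlier results of these data known. Values per array are given for members called in a comparison with Control and for 12 members fixed by name, less Cpt1b. Each comparison was repeated without filtering, with the filter raised to 8.65 (the 75th percentile), after adding 16 on the linear scale, after quantile normalization, with replicate numbers as blocks, in 1 fit of 4 groups, with SAM, the test of the study (20 relabelings, code written here), with the lowest-p probe set, with fat and muscle list means as covariates, and without each array in turn. The brown fat covariate was added after seeing the data. Of 18 same-number pairs of arrays, 3 had deviations correlated over 0.1 (median r -0.063), so numbers were not used to pair arrays. Code was tested on simulated data.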

Additional observations from a re-analysis of the deposited data

How the results depend on the processing

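Of 29 calls of members, an offset of 16, a further quantile normalization and SAM kept all 29. SAM called 49.1% of probe sets in OVA and 42.8% in OVA/PM against Control, where limma called 19.2% and 21.7%. The probe set with the lowest p also kept all 29. That outcome was fixed in advance, since its p cannot exceed that of the probe set used. A filter at the 75th percentile kept the 20 it still tested. No filter kept 16, the replicate block 15 and a fit of all 4 groups 21, and no call reversed under these. The covariates kept 5 (white fat), 6 (skeletal muscle), 13 (heart muscle) and 7 (brown fat, added after seeing the data). For OVA against Control, with 5 members called, the counts were 3 without a filter, 3 at the 75th percentile, 0 with the replicate block, 9 with SAM and 3 with skeletal muscle, and 0 to 4 on leaving out 1 array: 0 without Control replicate 1 or 2 and 1 without OVA replicate 1 or 3. For OVA/PM against Control, with 14, the counts were 0 with white fat, 2 with skeletal muscle, 9 with heart muscle and 2 with brown fat, and 4 to 11 on leaving out 1 array: 7 without Control replicate 1 or OVA/PM replicate 1, 4 without Control replicate 2 and 9 without OVA/PM replicate 3. For OVA/PM against PM, with 9, they were 3 without a filter, 5 with the replicate block, 0 with white fat, 1 each with skeletal muscle, heart muscle and brown fat, and 3 to 4 without any 1 array. For OVA against PM, with 1, they were 0 without a filter, with the replicate block and with each covariate, 4 in the fit of all 4 groups, 4 with SAM and 2 by the lowest p, and 0 to 3 without 1 array, 3 without OVA replicate 2 and 0 without OVA replicate 1 or 3 or any PM array. For OVA/PM against OVA, with 0, they ran from 0 to 1, the 1 without OVA replicate 1. With white fat as a covariate the sign turned for Lipe in OVA/PM against Control (0.07) and, in OVA/PM against PM, for Fabp4 (0.27), Acaa2 (0.06) and Ech1 (0.02). The cause of these shifts was not tested. PM against Control and the interaction gave 0 members under each alternative run. Intensity near the filter level limits Ces1g, Slc27a2 and Ucp3.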
